A study of Mus musculus with 70 samples.

Results

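The genes described here encode histone-modifying enzymes of the mouse pituitary gland, and they were chosen by name alone: the histone deacetylases other than Hdac3, the sirtuins, the lysine demethylases named Kdm, the SETD, SETDB, EZH, EHMT, SUV39H, NSD1, ASH1L and WHSC1 methyltransferases, the arginine methyltransferases named Prmt, the acetyltransferases named Kat with Crebbp and Ep300, and Dot1l. The rule found 67 genes among 22835 in the RNA table, each represented by its most abundant transcript, and 66 of the 67 were above 1 CPM (reads of a transcript scaled to a common library total) in all 18 RNA libraries, as were 13145 genes in all. By role they comprised 16 demethylases, 8 arginine methyltransferases, 7 sirtuins, 10 deacetylases of the zinc-dependent classes, 5 acetyltransferases and 21 lysine methyltransferases and related SETD proteins.

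The study asked how triiodothyronine (T3) acts on the pituitary through thyroid hormone receptor β (TRβ), the product of Thrb. RNA came from adult C57BL/6J males of 2 to 4 months, either wild type or Thrb-/- (Thrb-KO). Hypothyroid mice drank methimazole (MMI, 0.05%) with potassium perchlorate (1%) for 4 or 5 weeks, and hyperthyroid mice drank the same with T3 at 0.5 µg/ml added during the final 1 week, so that both groups had received the anti-thyroid drugs and neither was euthyroid. Each library held 3 pooled pituitaries, and wild-type mice gave 4 libraries per treatment and Thrb-KO mice gave 5 per treatment. Sites of TRβ binding were mapped in untreated mice homozygous for Thrb HAB and Rosa26 BirA (HAB;BirA), in which the endogenous receptor carries a tag that the BirA ligase biotinylates, by chromatin affinity purification (ChAP-seq) against control mice homozygous for Rosa26 BirA alone, in pituitary and in cerebral cortex. The control libraries were taken by their titles (BirA) and the study's methods, since another of their labels gives them the HAB genotype. Sites whose accessibility changed with T3 came from ATAC-seq of hypothyroid (MMI) and hyperthyroid (MMI with T3) mice. The nuclei were marked by Sun1-GFP in Thrb b2Cre/+ males, in which Cre follows the TRβ2 isoform. By the study's methods, the ATAC-seq and ChAP-seq mice were on mixed strain backgrounds, unlike the C57BL/6J mice used for RNA.

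Histones carry acetyl and methyl groups that enzymes add and remove. Acetylation by the p300, CBP and KAT enzymes accompanies active enhancers and promoters, deacetylases and sirtuins remove it, and methylation has different associations at different residues: H3K4, H3K36 and H3K79 methylation with transcribed genes, and H3K9 and H3K27 methylation with silent ones. Thyroid hormone receptors are a textbook case of this chemistry, since the receptor without hormone recruits corepressors with deacetylase activity and the hormone exchanges them for coactivators with acetyltransferase activity.

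The libraries held 21453548 to 55273749 reads on transcripts, so that 3 reads corresponded to 0.0543 to 0.14 CPM. They fell into a pair of sets that cut across the 4 groups: replicates 1 and 2 of every group (8 libraries) had 2571 to 3420 CPM of Lars2, a transcript whose annotated sequence contains ribosomal RNA, and replicates 3 to 5 (10 libraries) had 53.2 to 95.1 CPM. The third hyperthyroid wild-type library stood apart in composition, with a TMM scaling factor of 0.832 against 0.968 to 1.05 in the other 17. Thrb itself read 257 ± 27.3 CPM (SD, n = 4) in hypothyroid and 104 ± 22.8 CPM (n = 4) in hyperthyroid wild-type libraries, while libraries labelled Thrb-KO had 271 ± 20.1 and 260 ± 31.96 CPM (n = 5 each). The label Thrb-KO therefore went with no lower Thrb level, and since the table counts whole transcripts it does not test whether the deleted part is missing. The pituitary hormone transcripts were abundant in every library (Gh with Ghrhr together from 48440 CPM upwards), and they moved with T3: in wild-type mice the somatotroph sum ranged from 48440 to 66340 CPM in hypothyroid and from 87480 to 159200 CPM in hyperthyroid libraries, the lactotroph gene Prl from 5863 to 9334 and from 14520 to 53180 CPM, and the thyrotroph pair Tshb and Trhr from 2967 to 6525 and from 44.0 to 425 CPM. Of 5 stromal markers 2 were lower with T3 at both limits used below (sums of 312 to 382 and 227 to 349 CPM), and the 5 erythroid markers, of which none passed, summed to 53.2 to 98.3 and 120 to 136 CPM. In pooled glands, fewer cells of a type and less RNA per cell cannot be told apart, and the part of these shifts in the changes described below was not tested.

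The binding sites are shown first at the 2 loci on which most of what follows turns, Setd7 and Dot1l. SETD7 monomethylates H3K4 in purified histones and many proteins that are not histones, and DOT1L is the methyltransferase of H3K79. Coordinates and sequence are of the mm9 build. Setd7 lies on the minus strand of chromosome 3 (51319241 to 51364800). It held 3 pituitary TRβ peaks, all in introns, with 49 reads in HAB;BirA against 1 in the control, 31 against 1, and 19 against 2, starting 4900, 11600 and 12900 bases after the gene start. The strongest, in the first intron, overlapped an ATAC-seq peak that changed with T3 (51359522 to 51359839). The ATAC-seq list as read here gives no direction, so whether such a peak opened or closed with T3 is not stated. The response element best known for thyroid hormone receptors is a direct repeat of AGGTCA with a spacer of 4 bases (DR4). The first 2 of these peaks are printed below on the plus strand, with the bases in capitals where the best match to that repeat on either strand lies.

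Setd7 chr3:51359601-51359900: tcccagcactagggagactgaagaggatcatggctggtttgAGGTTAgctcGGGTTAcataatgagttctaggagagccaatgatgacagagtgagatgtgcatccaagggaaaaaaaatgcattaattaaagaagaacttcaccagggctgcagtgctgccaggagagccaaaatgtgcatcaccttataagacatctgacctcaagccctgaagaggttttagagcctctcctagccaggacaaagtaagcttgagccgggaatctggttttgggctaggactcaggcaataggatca
Setd7 chr3:51352951-51353200: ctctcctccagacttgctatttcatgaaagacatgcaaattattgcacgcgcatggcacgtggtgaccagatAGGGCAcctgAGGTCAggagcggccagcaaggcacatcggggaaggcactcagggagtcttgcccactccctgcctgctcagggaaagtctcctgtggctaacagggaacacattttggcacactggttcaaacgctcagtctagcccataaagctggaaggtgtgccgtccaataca

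In the first, at 51359642 to 51359657, 9 of the 12 half-site bases matched the repeat, and a match at least that close was present in 53.7% of the 1451 pituitary peaks of the same 300-base width. In the second, at 51353023 to 51353038, 11 of the 12 matched, which 4.02% of the 1369 pituitary peaks of 250 bases reached or passed. A match describes letters and is not a measured site of contact.

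The gene Dot1l, transcribed from the plus strand, spans 80217951 to 80258206 on chromosome 10, and its start was covered by the pituitary peak with the most reads among all enzyme genes, 186 in HAB;BirA against 3 in the control. The cortex had a peak at the same place with 167 reads against 9. The study already shows a peak near Dot1l as an example of a site shared by the tissues. The 300 bases before the annotated start, which both peaks contain, are printed because they carry this shared signal.

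Dot1l chr10:80217651-80217950: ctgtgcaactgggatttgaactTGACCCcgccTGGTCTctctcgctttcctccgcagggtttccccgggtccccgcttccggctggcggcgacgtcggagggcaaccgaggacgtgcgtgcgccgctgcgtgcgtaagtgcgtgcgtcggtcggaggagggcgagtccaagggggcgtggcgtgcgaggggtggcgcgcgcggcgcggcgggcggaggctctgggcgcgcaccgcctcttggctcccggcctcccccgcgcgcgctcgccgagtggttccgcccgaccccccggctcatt

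Of these bases 74% were G or C, and the best match, on the minus strand at 80217673 to 80217688, matched at 9 of 12 half-site bases. A match at least that close was present in 67.9% of the 346 pituitary peaks of 500 bases, the width of this Dot1l peak. No T3-dependent ATAC-seq peak lay within 20 kb of Dot1l.

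**Figure D1:**
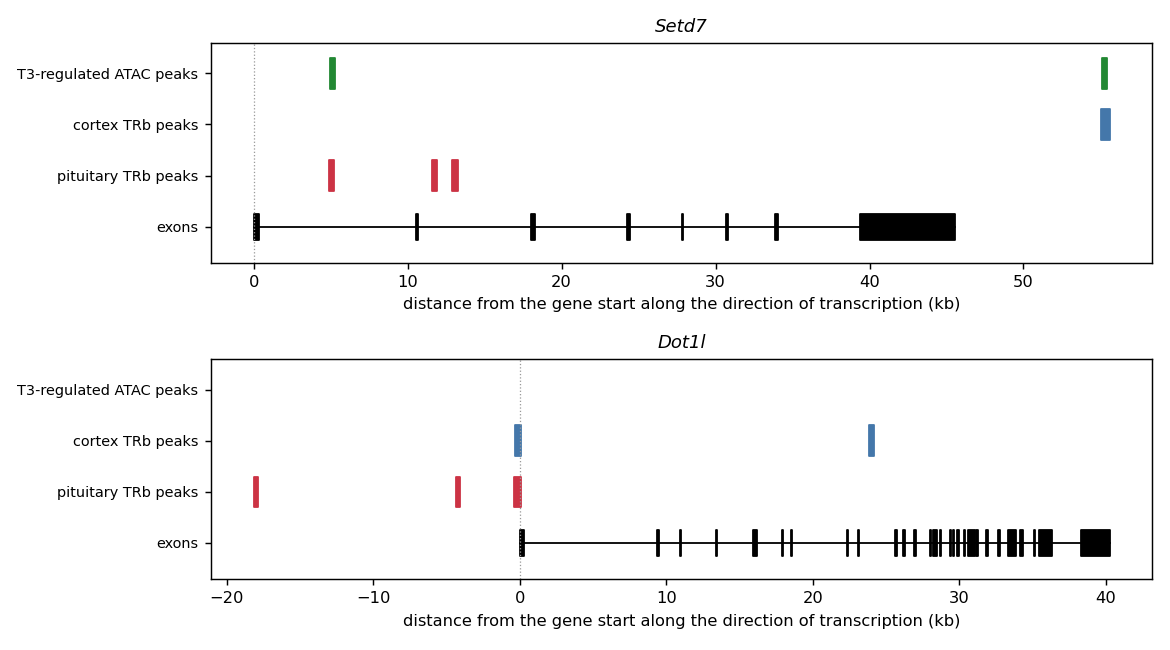
Map of peaks at Setd7 (top) and Dot1l (bottom); the x axis is the distance from the gene start in kb along the direction of transcription, black boxes are exons of the longest transcript, and coloured boxes are pituitary TRβ, cortex TRβ and T3-dependent ATAC-seq peaks. Setd7 has 3 intronic pituitary peaks of which the first coincides with an ATAC-seq peak, and Dot1l has a pituitary and a cortex peak together at its start.

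The first comparison asked which of these enzymes respond to T3 in the wild-type gland. Setd7 RNA rose 2.11-fold and Hdac9 RNA, for a class IIa deacetylase that binds MEF2 factors, fell by 1.11 on the log2 scale, while Prmt7, an arginine methyltransferase that makes monomethylarginine, fell by 0.63. Differences were taken as log2(CPM + 1), hyperthyroid minus hypothyroid, with limma across all 13145 genes and Benjamini-Hochberg adjustment, and a gene counted as changed at an adjusted p under 0.05 and at least 1.5-fold. These 3 of 66 enzyme genes (1 higher, 2 lower) compare with 9.46% of all genes tested (509 higher and 735 lower), and the median difference was -0.03 over the enzyme genes and -0.04 over all genes. With TMM scaling the all-gene median moved to 0.05 and the all-gene split to 675 higher and 538 lower.

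Setd7 read 227, 276, 152 and 197 CPM in the 4 hypothyroid wild-type libraries and 502, 568, 335 and 392 CPM in the 4 hyperthyroid ones. Every hyperthyroid library was above every hypothyroid one. The difference was 1.08 ± 0.20 (log2, SE; limma adjusted p = 0.000717), and it was 1.09 in replicates 1 and 2 alone and 1.06 in replicates 3 and 4 alone. Per kilobase of transcript Setd7 was also the most abundant of the enzymes, at a mean of 44.5 CPM per kb over the 18 libraries, where the median enzyme gene had 8.95.

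Hdac9 showed the opposite change. Its 4 hypothyroid libraries had 32.2, 33.9, 21.0 and 21.6 CPM and its 4 hyperthyroid libraries had 14.9, 15.2, 7.87 and 10.7 CPM. The groups did not overlap, and the level was higher in replicates 1 and 2 than in 3 and 4 under both treatments. Hdac9 fell by 1.11 (SE 0.19; limma adjusted p = 0.000263), with -1.08 and -1.13 within the sets. The other class IIa genes, Hdac4, Hdac5 and Hdac7, did not pass the test, and the role as a whole spanned -1.11 to 0.33.

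Prmt7 fell from 18.0, 16, 27.9 and 23.7 CPM in hypothyroid to 12.3, 10.6, 14.4 and 15.97 CPM in hyperthyroid libraries. The ranges barely parted, at hypothyroid replicate 2 and hyperthyroid replicate 4, although within each library set the separation was clear. Its difference of -0.63 ± 0.18 (limma adjusted p = 0.0165) no longer passed without hypothyroid replicate 3 or 4 (adjusted p = 0.0693 and 0.055) or hyperthyroid replicate 2 (0.0575), nor with DESeq2 size factors (0.051), and it was under 1.5-fold with TMM scaling (-0.53, adjusted p = 0.0455) and in replicates 1 and 2 alone (-0.54). With TMM scaling 2 enzyme genes passed both limits, 1 higher and 1 lower. Prmt2, a second arginine methyltransferase and nuclear receptor coactivator, had 36.7, 35.7, 52.0 and 48.7 CPM in hypothyroid and 23.5, 26.0, 34.4 and 36.2 CPM in hyperthyroid libraries. The groups overlapped slightly. Its difference of -0.52 ± 0.17 passed the adjusted p alone (0.0356), and it was lost on leaving out any 1 of 4 libraries (hypothyroid replicates 3 and 4, 0.123 and 0.108; hyperthyroid replicates 1 and 2, 0.12 and 0.0948) and under TMM scaling (0.105).

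Without the fold limit, 2 enzyme genes were higher and 6 lower at an adjusted p under 0.05, where 6.89% of all genes were higher and 12.4% lower. With TMM scaling the enzyme genes split into 6 higher and 3 lower. The split of all genes turned in the same way, from 906 higher and 1630 lower to 1507 higher and 1247 lower. Setd8, the monomethyltransferase of H4K20 that acts in the cell cycle, had 14.3, 15.1, 13.8 and 15.9 CPM against 11.2, 11.1, 10.3 and 11.3 CPM with T3, and fell by 0.39 (SE 0.10; limma adjusted p = 0.00858). All 4 hyperthyroid values lay in a narrow band below the hypothyroid ones. Setd6, which methylates the RelA subunit of NF-κB, had 9.53, 9.27, 12.2 and 10.5 CPM against 7.89, 7.06, 7.34 and 8.93 CPM, and fell by 0.37 (SE 0.10; limma adjusted p = 0.0133, or 0.0583 without the third hypothyroid library, 0.051 with TMM scaling and 0.0607 with DESeq2 size factors).

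Ehmt1 (GLP), a dimethyltransferase of H3K9, went from 64.2, 56.6, 64.9 and 60.1 CPM to 56.5, 56.1, 41.8 and 50.1 CPM, a difference of -0.27 ± 0.087 (limma adjusted p = 0.0357). The groups met at 56.6 and 56.5 CPM. The adjusted p was 0.0609 to 0.102 without 1 of hypothyroid replicates 1, 3 and 4 or hyperthyroid replicates 3 and 4, 0.0921 with TMM scaling (-0.17) and 0.11 with DESeq2 size factors (-0.16), and in replicates 1 and 2 alone the difference was -0.10. Sirt6, a deacetylase of H3K9 that acts in DNA repair and glucose metabolism, rose from 10.2, 8.39, 9.57 and 9.03 CPM to 10.2, 10.7, 12.4 and 13.2 CPM, a difference of 0.29 ± 0.097 (limma adjusted p = 0.0428). The adjusted p of Sirt6 passed 0.05 upwards on leaving out any 1 of 12 libraries, with 0.132 without the fourth hyperthyroid wild-type library the largest. In the wild-type comparison 2 enzyme genes (Setd7 and Sirt6) were higher and 5 (Ehmt1, Hdac9, Prmt7, Setd6 and Setd8) lower in every hyperthyroid than in every hypothyroid library, and 17.4% of all genes likewise did not overlap.

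Dot1l did not pass in this comparison. It had 57.6, 57.0, 39.4 and 37.7 CPM in hypothyroid and 90.3, 82.7, 36.7 and 63.9 CPM in hyperthyroid wild-type libraries. In 3 of the 4 replicate numbers the hyperthyroid library was the higher, and the third hyperthyroid library, the one that stood apart in composition, was the lowest of all 8. Replicate numbers come from the titles. Same-numbered libraries are not shown to be pairs, which limits each comparison by number and each fit with the number as a block, here and below. The difference was 0.45 ± 0.21 (limma adjusted p = 0.159). It was 0.72 without that library (adjusted p = 0.00213), 0.45 with the replicate number as a block (0.0305), 0.55 with TMM scaling (0.0453) and 0.58 in replicates 1 and 2 alone, so it passed the adjusted p under each of these but reached 1.5-fold only without that library. Under 23 of 31 alternatives Dot1l did not pass the adjusted p, and leaving out 1 library gave differences of 0.30 to 0.72. Leaving out the third hyperthyroid wild-type library raised the number of changed enzyme genes from 3 to 5 (2 higher, 3 lower). Over all genes 650 were higher and 684 lower without it.

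The remaining roles held few changes with T3. None of the 15 demethylases tested passed, with differences from -0.23 to 0.36 and the largest for Kdm6b, which removes H3K27 methylation (98.7, 102, 66.9 and 77.1 CPM against 118, 119, 97.0 and 106 CPM; 0.36, limma adjusted p = 0.052). Each numbered replicate of Kdm6b was higher with T3, and with the replicate block its adjusted p was 0.00225. By the adjusted p alone the block gave 4 enzyme genes higher and 7 lower, with Kdm6b, Dot1l and Hdac6 (-0.31, adjusted p = 0.0695, or 0.0021 with the block) gained. Over all 13145 genes the block gave 1355 higher and 2443 lower, where the fit without it gave 906 and 1630. The 5 acetyltransferases (Crebbp, Ep300, Kat2a, Kat2b and Kat5), which are coactivators of nuclear receptors, lay between -0.10 and 0.16, and the 5 H3K36 methyltransferases between -0.17 and 0.12. Of the H3K27 methyltransferases, Ezh1 and Ezh2 differed by -0.04 and -0.07. Kdm4d, an H3K9 demethylase, was the only gene below the CPM limit, with 0.243 to 0.713 CPM over the 18 libraries, and was not tested.

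**Figure D2:**
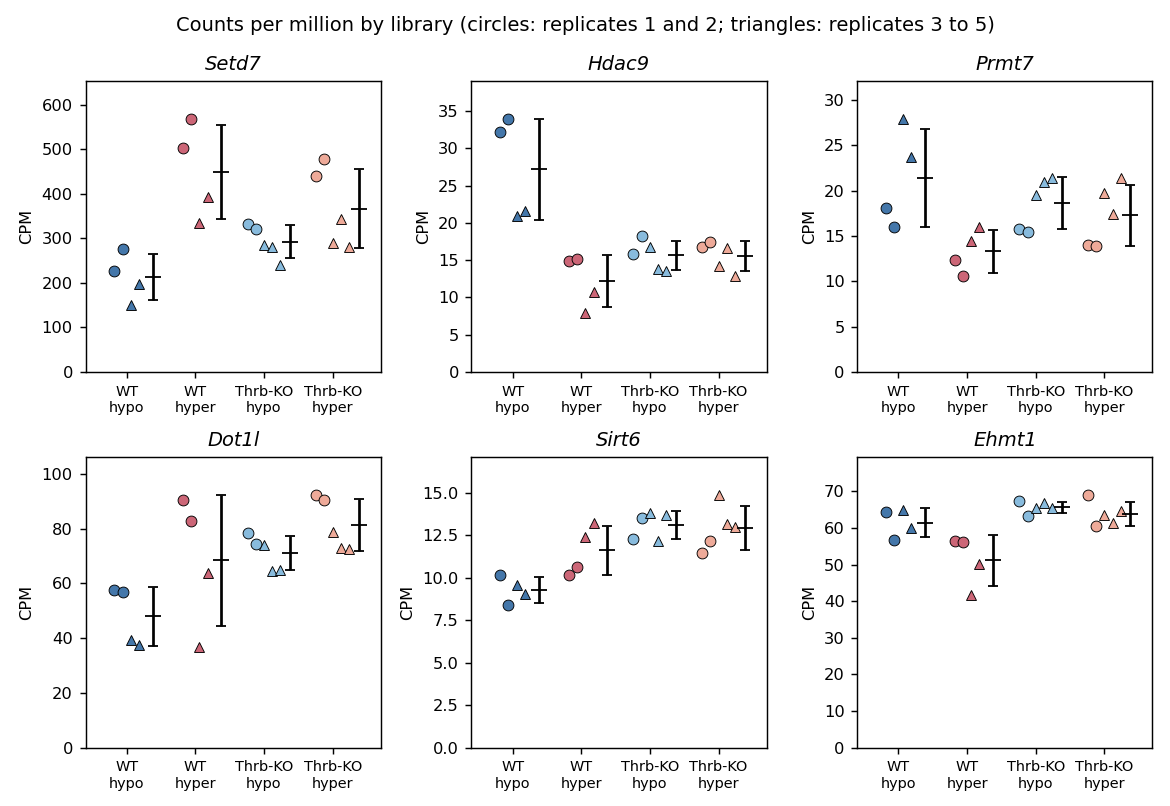
CPM of 6 enzyme genes in each of the 18 RNA libraries by group (WT, wild type; hypo, hypothyroid; hyper, hyperthyroid); circles are replicates 1 and 2, triangles replicates 3 to 5, and bars the mean ± SD. Hdac9 is near 27 CPM in hypothyroid wild type and near 12 to 16 CPM in the other 3 groups, and Dot1l has 1 hyperthyroid wild-type library far below the other 3.

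In Thrb-KO mice the same treatments changed none of the 66 enzyme genes, against 1.01% of all genes (54 higher, 79 lower). Neither edgeR nor DESeq2 on the reads called any. Setd7 had 333, 322, 286, 280 and 240 CPM in the 5 hypothyroid and 440, 477, 289, 344 and 281 CPM in the 5 hyperthyroid Thrb-KO libraries. The groups overlapped, and each numbered replicate was higher with T3. The difference was 0.30 ± 0.18 (limma adjusted p = 0.863, or 0.0472 with the replicate block).

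Hdac9 read 15.8, 18.3, 16.7, 13.8 and 13.6 CPM in hypothyroid and 16.8, 17.4, 14.2, 16.6 and 12.8 CPM in hyperthyroid Thrb-KO libraries. The groups lay on top of each other, with a difference of -0.01. Dot1l had 78.3, 74.4, 74.0, 64.5 and 64.9 CPM against 92.4, 90.6, 78.8, 73.1 and 72.5 CPM, a difference of 0.19 (limma adjusted p = 1), with every numbered replicate higher under T3 and the ranges overlapping.

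Whether the T3 response itself differed between genotypes was tested as the interaction, taken as the Thrb-KO response minus the wild-type response. Hdac9 was the 1 enzyme gene that passed, at 1.10 ± 0.25 (limma adjusted p = 0.0125), against 4.26% of all genes (326 positive and 234 negative, or 251 and 323 with TMM scaling). The value was between 0.92 and 1.21 and past the threshold under all alternatives. Setd7 came second, at -0.77 ± 0.27 (adjusted p = 0.126). With the replicate block its adjusted p was 0.000513, without the third hyperthyroid wild-type library the value was -0.91 (0.0461), and within the sets it was -0.60 (0.00607) and -0.88 (0.0297). Under 26 of 31 alternatives the Setd7 interaction did not pass the adjusted p. The block raised the count of enzyme genes at an adjusted p under 0.05 from 1 to 5, adding Setd7, Prmt7, Prmt2 and Hdac6. Over all genes it gave 882 positive and 536 negative at that limit, where the fit without it gave 433 and 285. For Dot1l the interaction was -0.27 (adjusted p = 0.845). For Prmt7 it was 0.52 (adjusted p = 0.301, or 0.00472 with the block).

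**Figure D3:**
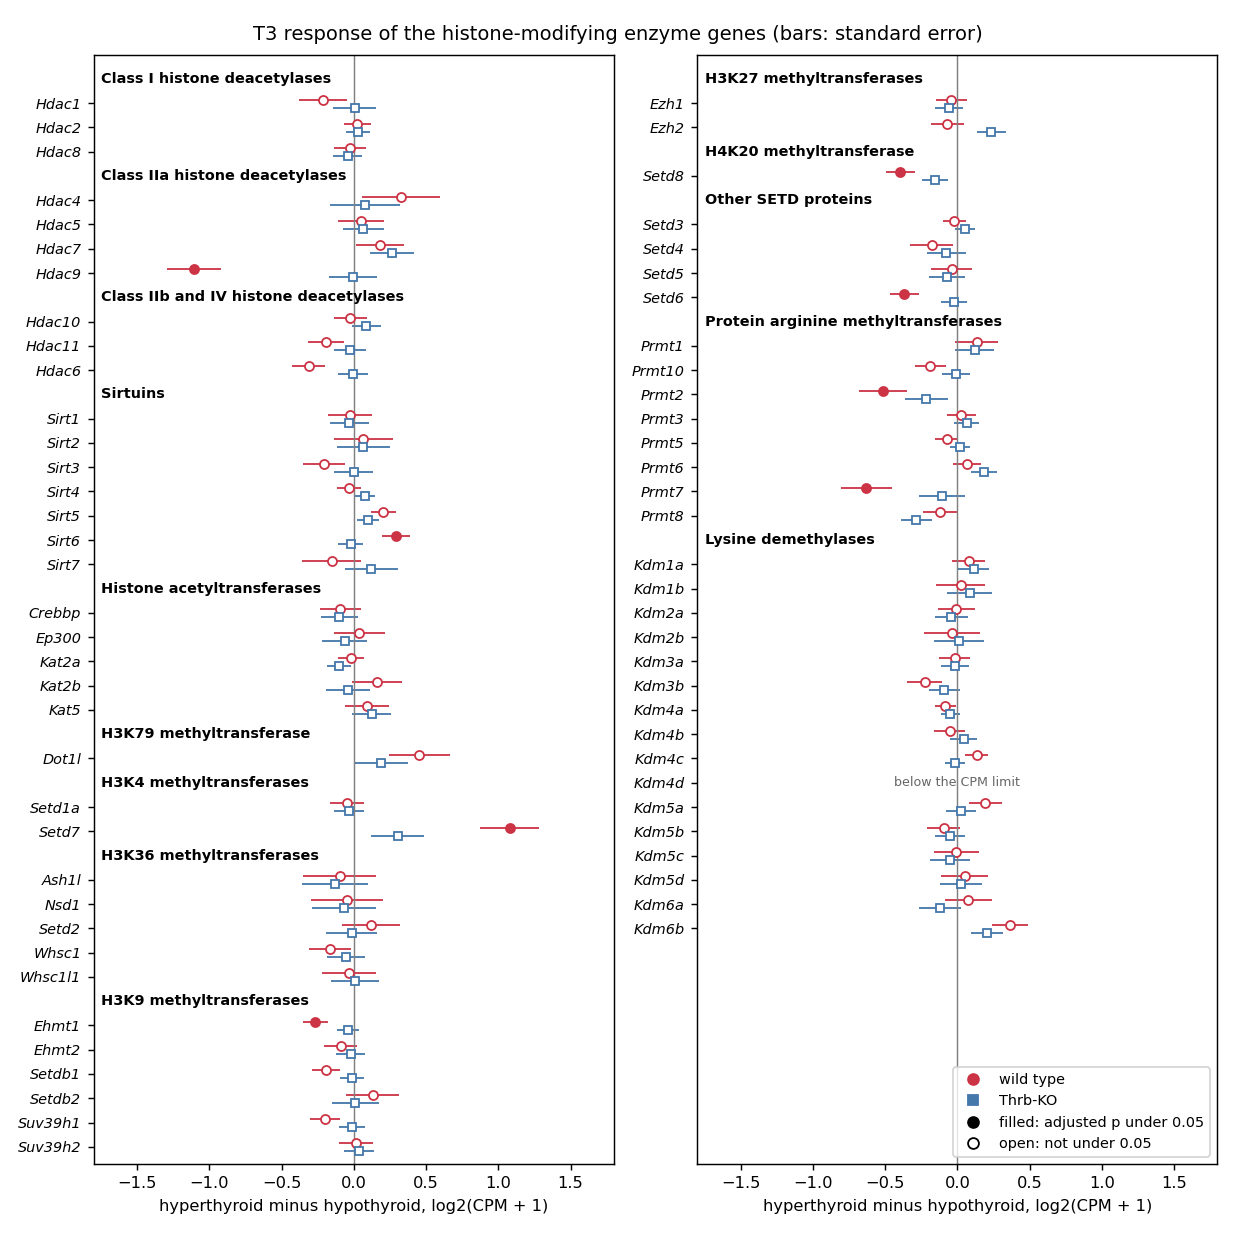
T3 response of each enzyme gene by role, as hyperthyroid minus hypothyroid log2(CPM + 1) on the x axis with its standard error, in wild type (red circles) and Thrb-KO (blue squares); filled symbols have a limma adjusted p under 0.05. Setd7 at 1.08 and Hdac9 at -1.11 stand furthest from 0 in wild type, and no Thrb-KO symbol is filled.

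The genotypes were next compared under the same treatment. These comparisons use the same libraries as the T3 responses. In hypothyroid mice 1 enzyme gene changed, against 3.02% of all genes (133 higher, 264 lower). Hdac9 was lower in Thrb-KO (log2 difference -0.73 ± 0.18; limma adjusted p = 0.0152), and the 5 Thrb-KO libraries (13.6 to 18.3 CPM) were all below the 4 wild-type ones (21.0 to 33.9 CPM). Without the first or second hypothyroid wild-type library the difference was -0.65 or -0.62 (adjusted p = 0.0617 and 0.0588), and in replicates 3 to 5 alone it was -0.51 (0.0599). In hypothyroid Thrb-KO mice, Hdac9 was thus at 15.6 ± 1.99 CPM (SD, n = 5), near the 12.2 ± 3.53 CPM (n = 4) of hyperthyroid wild-type mice.

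By the adjusted p alone, 2 enzyme genes differed in hypothyroid mice, against 6.85% of all genes. The other was Sirt6, at 12.3, 13.5, 13.8, 12.2 and 13.7 CPM in Thrb-KO against 10.2, 8.39, 9.57 and 9.03 CPM in wild type. All 5 Thrb-KO values were above the wild-type ones, and the difference of 0.46 ± 0.092 (limma adjusted p = 0.00411) kept its call by the adjusted p under all alternatives (0.41 to 0.50). Hyperthyroid wild-type and Thrb-KO libraries had 11.6 ± 1.43 and 12.9 ± 1.29 CPM.

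Among hypothyroid mice, Dot1l averaged 71.2 ± 6.18 CPM (SD, n = 5) in libraries labelled Thrb-KO and 47.9 ± 10.9 CPM (n = 4) in wild-type ones. All 5 Thrb-KO libraries (64.5 to 78.3 CPM) were above all 4 wild-type ones (37.7 to 57.6 CPM), while the difference of 0.58 ± 0.20 did not pass in the comparison across all genes (limma adjusted p = 0.0941, or 0.00851 without hyperthyroid wild-type replicate 3, a library outside this contrast that enters the shared variance). With the replicate block it was 0.62 and passed both limits (adjusted p = 0.00881), and it was 0.41 (0.00125) in replicates 1 and 2 alone and 0.80 (0.0196) in replicates 3 to 5 alone. Under 25 of 31 alternatives this Dot1l difference did not pass the adjusted p. Setd7, at 292 ± 37.0 against 213 ± 52.4 CPM, differed by 0.48 (adjusted p = 0.176, or 0.000491 with the block). The block raised the number of enzyme genes passing the adjusted p from 2 to 8, of which Hdac9 was the only one lower in Thrb-KO. Over all genes the block gave 921 higher and 962 lower, where the fit without it gave 359 and 542.

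Across the enzyme genes, 50 of 66 had a positive difference in hypothyroid mice, Thrb-KO minus wild type, against 55.6% of all genes, and the median was 0.11 against 0.03 over all genes. All 15 tested demethylases were on the positive side, between 0.05 and 0.36 with a median of 0.13, and none passed the adjusted p. The 5 H3K36 methyltransferases (median 0.20) and the 5 acetyltransferases (median 0.13) were likewise all positive. By contrast, 6 of the 8 arginine methyltransferases and 4 of the 7 sirtuins were negative. In hypothyroid mice 4 enzyme genes were higher (Dot1l, Kdm3a, Sirt1 and Sirt6) and 2 lower (Hdac9 and Prmt3) in every Thrb-KO library than in every wild-type one, with 14.3% of all genes not overlapping. The 5 immune markers moved with this comparison as well, summing to 94.0 to 111 CPM in wild-type and 53.5 to 64.9 CPM in Thrb-KO hypothyroid libraries with 3 of the 5 lower at both limits, and their part in it was not tested.

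In hyperthyroid mice no enzyme gene passed both limits, against 4.86% of all genes (334 higher and 305 lower, or 239 and 389 with TMM scaling). Neither edgeR nor DESeq2 called any at both limits. By the adjusted p alone 5 were higher in Thrb-KO, against 7.77% of all genes. They included 3 of the 6 H3K9 methyltransferases and none of the demethylases. Ehmt1 had 56.5, 56.1, 41.8 and 50.1 CPM in wild type and 69.1, 60.4, 63.5, 61.3 and 64.7 CPM in Thrb-KO (0.32 ± 0.082; limma adjusted p = 0.0134). The groups did not overlap.

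Setdb1, which trimethylates H3K9 and silences retroelements, had 34.8, 37.1, 30.0 and 37.3 CPM against 41.0, 38.2, 44.7, 46.3 and 48.3 CPM (0.32; adjusted p = 0.0257). Suv39h1, which trimethylates H3K9 in heterochromatin, had 13.3, 14.6, 13.1 and 16.4 CPM against 15.8, 17.2, 19.3, 17.6 and 20.3 CPM (0.31; adjusted p = 0.043). Ezh2, the H3K27 methyltransferase of the PRC2 complex, had 3.13, 2.80, 3.73 and 3.87 CPM against 4.32, 3.90, 5.46, 5.42 and 4.85 CPM (0.40; adjusted p = 0.0189). The groups did not overlap for Setdb1 and Ezh2 and overlapped for Suv39h1. The 12 proliferation markers summed to 44.1 to 103 CPM in hyperthyroid wild-type and 73.5 to 107 CPM in hyperthyroid Thrb-KO libraries, 1 of the 5 abundant enough to test was higher in Thrb-KO, and their part in these differences was not tested.

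Hdac6, a largely cytoplasmic deacetylase of tubulin, had 32.5, 30.0, 34.0 and 40.1 CPM against 40.4, 38.5, 48.3, 44.4 and 50.7 CPM (0.37; limma adjusted p = 0.0336), with 1 Thrb-KO library below the highest wild-type one. These 5 depended on the scaling: with TMM, which offsets the low factor of the third hyperthyroid wild-type library, only Ehmt1 passed (0.23), and the number of enzyme genes with a positive difference was 45 of 66 rather than 58, beside 45.7% rather than 63.2% of all genes. On leaving out 1 library, Ezh2 lost its call without hyperthyroid wild-type replicate 1 or 2 or Thrb-KO replicate 3 or 4 (adjusted p = 0.054 to 0.0668), Hdac6 without any 1 of 6 hyperthyroid libraries (wild-type replicates 1 to 3 and Thrb-KO replicates 3 to 5; 0.0508 to 0.0983), Setdb1 without hyperthyroid wild-type replicate 3 or Thrb-KO replicate 3, 4 or 5 (0.0561 to 0.0695) and Suv39h1 without any 1 of 13 libraries (0.0523 to 0.109). Without the third hyperthyroid wild-type library 2 enzyme genes were higher and 1 lower, and with the replicate block 12 were higher. Over all genes there were 832 higher and 830 lower without that library, and 1688 higher and 853 lower with the block. In hyperthyroid mice 4 enzyme genes (Ehmt1, Ezh2, Setd3 and Setdb1) were higher in every Thrb-KO than in every wild-type library, and 11.3% of all genes did not overlap.

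Genes that work with these enzymes but lie outside the naming rule were counted from lists of complex partners, beside the 9.46% of all genes that changed at both limits. With T3 in wild-type mice none of 6 DOT1L complex partners (Mllt1, Mllt3, Mllt6, Mllt10, Aff1 and Aff4) and none of 6 COMPASS partners passed the adjusted p. Of 8 PRC2 partners 1 changed at both limits, Jarid2, an accessory subunit that helps to recruit the complex (39.1 CPM in hypothyroid and 67.7 CPM in hyperthyroid wild type; 0.75, limma adjusted p = 0.00124). In Thrb-KO mice Jarid2 was at 48.4 and 46.9 CPM, and its interaction of -0.80 passed (adjusted p = 0.0235).

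Of 14 deacetylase complex partners 1 changed at both limits, Chd3, the helicase of a NuRD complex (77.0 and 154 CPM; 1.00, adjusted p = 2.56e-07). Chd3 was also higher with T3 in Thrb-KO mice by the adjusted p alone (116 and 167 CPM; 0.51, adjusted p = 0.00117). Of 20 other histone-modifying enzymes 2 were higher and 1 lower. Hr, a demethylase-domain corepressor of thyroid hormone receptors and a known T3 target, went from 24.7 to 181 CPM in wild type (2.82, adjusted p = 3.21e-09) and from 52.1 to 234 CPM in Thrb-KO (2.17, adjusted p = 2.47e-07). Suv420h2, which trimethylates H4K20, went from 14.7 to 29.2 CPM (0.93, adjusted p = 0.000326). Smyd3, a methyltransferase of the SMYD family, fell from 27.8 to 16.9 CPM (-0.69, adjusted p = 0.000118).

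The peak lists were then read at all 67 loci. A pituitary TRβ peak lay within 20 kb of 27 of the 67 enzyme genes (40.3%; 95% Wilson interval 29.4 to 52.3%, counting error only), and of 41.3% of all genes tested. A cortex peak lay near 27 as well, against 34.9% of all genes. Both tissues had a peak near 17 of them, only the pituitary near 10 and only the cortex near 10, and at 8 genes peaks of the 2 tissues overlapped. Within 1 kb of an annotated start there were pituitary peaks at 11 enzyme genes (16.4%, against 14.1% of all genes) and cortex peaks at 14 (20.9%, against 15.5%). The shares of enzyme genes were thus near those of all genes. The authors called peaks on 3 merged libraries per genotype, so no spread between replicates can be given.

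The 48 pituitary peaks held 11 to 186 HAB;BirA reads, with a median of 18 that equalled the median of all 8051 pituitary peaks. Beside Dot1l, the peak with at least 30 reads within 1 kb of a gene's outermost start belonged to Kdm2b, an H3K36 demethylase of a Polycomb complex (chr5:123464451-123464950, with 52 reads against 4 and an overlapping cortex peak of 24 against 3). That peak lay 139 bases from the start of Kdm2b and 133 from that of Orai1. Kdm2b RNA was 17.2, 16.5, 10.4 and 10.8 CPM in hypothyroid and 15.4, 16.2, 7.70 and 14.7 CPM in hyperthyroid wild type, which overlapped. Kdm6b and Sirt4 are added because their reads, seen in the data, came next after Dot1l: Kdm6b had 129 against 10 reads at chr11:69231101-69232050, 3924 bases upstream of its start, with 122 against 4 in cortex, and Sirt4 had 78 against 4 at chr5:115925601-115926250, 8484 bases from its start.

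**Figure D4:**
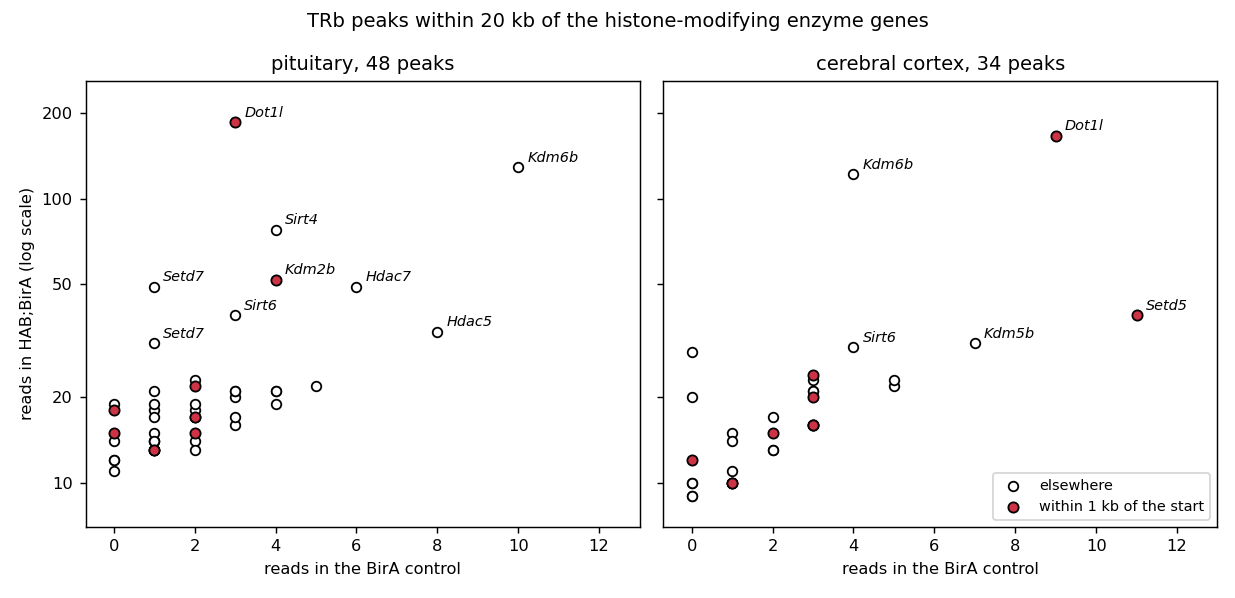
Reads of each TRβ peak within 20 kb of an enzyme gene in HAB;BirA (y axis, log scale) against reads in the BirA control (x axis), for 48 pituitary and 34 cortex peaks. Filled points lie within 1 kb of the outermost annotated start of the gene, and peaks at its other starts are open. Dot1l and Kdm6b are the highest points in both tissues, and the 2 labelled Setd7 points appear in the pituitary only.

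T3-dependent ATAC-seq peaks were within 20 kb of 2 enzyme genes (2.99%, against 7.79% of all genes). At Setd7 there were 2, the one in the first intron and one 9558 bases beyond the gene end (51309529 to 51309683), which overlapped a cortex peak of 10 reads against 1. The other gene was Sirt5, a mitochondrial desuccinylase, with a peak at chr13:43457421-43457912, 2970 bases upstream of its start, and a pituitary TRβ peak of 19 reads against 4 nearby. Sirt5 RNA had 5.99, 5.25, 5.07 and 5.11 CPM in hypothyroid and 6.95, 6.54, 5.47 and 6.36 CPM in hyperthyroid wild type. The groups overlapped, and the difference of 0.20 did not pass (limma adjusted p = 0.121).

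The peaks were then set beside the RNA, for few genes and with no test. Of the 2 enzyme genes higher with T3 by the adjusted p alone, both had a pituitary peak within 20 kb: Setd7 in its introns, and Sirt6 with 39 reads against 3 at 15559 bases and 13 against 2 at 1459 bases upstream. Both Sirt6 peaks lay nearer to the start of another gene, Gm10778 (4966 bases) and Ankrd24 (716 bases) respectively. Of the 6 enzyme genes that were lower, 1 had a pituitary peak within 20 kb, Ehmt1 at 19172 bases upstream with 23 reads against 2. That peak lay nearer to the start of Arrdc1 (3529 bases). Hdac9, Prmt7, Prmt2, Setd8 and Setd6 had no pituitary peak within 20 kb, and Hdac9 had a cortex peak of 10 reads against 1 over a coding exon. Of the 27 tested enzyme genes with a pituitary peak 7.41% were thus higher and 3.7% lower, and of the 39 without one 0 were higher and 12.8% lower. Over all genes, 11.6% of the 5327 with a pituitary peak and 3.62% of the 7571 without were higher with T3, and 11.7% and 13.1% were lower.

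Direct repeats with at most 2 of the 12 half-site bases mismatched, searched on both strands, were in 6 of the 48 pituitary peaks of the enzyme genes (12.5%) and in 20.9% of all 8051. In cortex they were in 2 of 34 (5.88%) and 9.3% of all 5164, and in none of the 3 ATAC-seq peaks, where 30.9% of all 1776 had one. With at most 1 mismatch there were 3 pituitary peaks (6.25%, against 3.94% of all). These 3 are shown as 30 bases on the strand of the match, with the half-sites in capitals, since they are the closest matches at these genes; the Setd7 one is the second peak printed above.

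Setd7 chr3:51353016-51353045, plus strand: accagatAGGGCAcctgAGGTCAggagcgg
Kdm2b chr5:123464781-123464810, minus strand: ttgacttAGGCCAtccgAGGTCAcctctgg
Sirt4 chr5:115926103-115926132, plus strand: ttcccaaAGGTCAggccAGGCCAcctgcgc

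Each matched at 11 of 12 half-site bases. Of the 3 genes, Setd7 alone passed the test of the T3 response in wild type, and none passed in Thrb-KO.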

How the data were processed

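RNA from 18 pooled pituitary samples was sequenced by the authors as single-end reads and mapped to RefSeq transcripts (mm9) with BBMap, and they deposited CPM per transcript; the protocol in the labels names either of a pair of library kits, and which was used for which library is not given in the sources used here. The deposited CPM were whole multiples of 1 read for 100% of values (tolerance 0.01 reads), so reads were recovered for the alternatives with edgeR 4.0.16 (whose calls, with DESeq2 1.42.0, are given beside limma's). For TRβ ChAP-seq the authors merged 3 libraries per genotype and called peaks with SICER 1.1 (50 bp windows); the deposited peak lists hold read counts in HAB;BirA and control, p-values and q-values, and a fold over control. Columns hold the authors' pooled values. The ATAC-seq list (Bowtie2, MACS2, edgeR by the authors) is of peaks already selected for a T3 effect; its p-value column is the authors' own comparison and was not used.

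Here limma 3.58.1 (R 4.3.3; trend on) was fitted to log2(CPM + 1) over 13145 genes above 1 CPM in all 18 libraries, in one model of 4 groups with 5 contrasts. The pseudocount understates changes of low genes. Only the samples' labels set the groups, and nothing says how the pools were drawn, so p-values measure the spread between pools. Same-numbered libraries deviated together in all 25 pairs (correlation 0.13 to 0.815), but only 10 of 25 correlated best with their own number. In all 25 the best match lay in the same library set (replicates 1 and 2, or 3 to 5). The correlations therefore went with the set and do not show that same-numbered libraries were pairs. The number, taken from the titles, was fitted as a block in an alternative, and the library set as a term in another. Peaks were placed on GENCODE gene models of mm9 (67 of 67 enzyme genes and 12898 of 13145 genes placed), within 20 kb of the gene or 1 kb of any start. Sequence was read from the mm9 genome. Genes, lists and tests were chosen with earlier results of these data known. Named in the text were Dot1l, every enzyme gene changed in any contrast or passing the adjusted p in the interaction or between genotypes, the 10 largest passing with T3 in wild type, those with a T3-dependent ATAC-seq peak or a pituitary peak of at least 30 reads within 1 kb of the outermost start, the highest and lowest per length, and partner genes changed with T3. Antisense and paralog reads could not be separated from the table.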

Additional observations from a re-analysis of the deposited data

Results flagged for a closer look

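The T3 response of Hdac9 differed between genotypes: the Thrb-KO response minus the wild-type response was 1.10 on the log2 scale in the interaction test of limma (SE 0.25, adjusted p = 0.0125). In wild type, Hdac9 averaged 27.2 ± 6.84 CPM (SD, n = 4) without T3 and 12.2 ± 3.53 CPM (n = 4) with it, and in Thrb-KO it averaged 15.6 ± 1.99 and 15.6 ± 1.98 CPM (n = 5 each). The named enzyme genes gave 64 groups of library values, and 0 held a value past the outlier limit, set on its gap to the nearest value as a share of the group's range. That limit is hard to pass with n = 4 or n = 5. The low Dot1l value of the third hyperthyroid wild-type library was not past it, so the check does not show that no library stood apart.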

How the results depend on the processing

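The count of enzyme genes changed with T3 in wild type was 3, without a fold limit 8, and 2 with TMM scaling or DESeq2 size factors; leaving out 1 library gave 2 to 5, the 5 without the third hyperthyroid wild-type library. In Thrb-KO it was 0 under all 33 alternatives. For the interaction the count was 1, and it was 2 with the replicate block, with the library set as a term, in replicates 1 and 2 alone and in replicates 3 to 5 alone; leaving out 1 library gave 1 to 2 (2 without the third hyperthyroid wild-type library). Between genotypes in hypothyroid mice the count was 1, and it was 2 without a fold limit, with the replicate block, with the library set as a term and in replicates 3 to 5 alone (there Dot1l and Setd7, both higher, and not Hdac9), and 0 with a fold limit of 2; leaving out 1 library gave 0 to 1 (0 without the first or second hypothyroid wild-type library). In hyperthyroid mice it was 0, and 5 without a fold limit and 3 in replicates 3 to 5 alone (Dot1l, Hdac7 and Hdac9); leaving out 1 library gave 0 to 1 (1 without the first hyperthyroid wild-type library, Hdac7). The replicate block made Setd7 pass in the interaction and Dot1l in hypothyroid mice and changed no other call at both limits. Counts by the adjusted p alone, examined after the data had been seen, ranged from 3 to 17 (main 8), 0 to 2 (0), 1 to 6 (1), 1 to 10 (2) and 1 to 15 (5) over the 5 contrasts in the order above. The replicate block also raised these counts over all genes in each of the 5 contrasts. The cause of these shifts was not tested.

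Genes near a pituitary peak (27) became 45 at 100 kb and 15 with at least 20 reads, and those near a cortex peak (27) became 41 at 50 kb, 49 at 100 kb and 14 with at least 20 reads. Start-site pituitary peaks (11 genes) became 5 over the start base, 18 within 5 kb, 5 with at least 20 reads and 7 on the longest transcript, and cortex ones (14) became 5, 17, 7 and 9. Genes near an ATAC-seq peak (2) became 5 at 100 kb. Direct repeats (6 pituitary peaks) became 3 with at most 1 mismatch and 24 with at most 3; in cortex (2) they became 1 and 13, and in ATAC-seq peaks (0) 2 with at most 3. The ATAC-seq list was not reread at a stricter p, since its p-values are the authors' comparison. The lowest levels were those of Kdm4d, at under 1 CPM, and Prmt8, at 1.64 to 3.29 CPM, where depth limits most.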
